A study of Mus musculus with 24 samples.

Results

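The nuclear genes for the subunits of oxidative phosphorylation were followed in whole left lung lobes of newborn mice that lacked Vangl2 or Ror2 in the epithelium. Members were taken by symbol: the Ndufa, Ndufb, Ndufc, Ndufs and Ndufv series, Sdha to Sdhd, symbols opening with Uqcr, Cox4 to Cox8 and Atp5. They numbered 84 of the 23420 genes listed, of which 37 belong to complex I, 4 to complex II, 8 to complex III, 18 to complex IV and 17 to complex V. The symbols also catch genes that are not classical subunits: Cox7a2l, a supercomplex assembly factor, Ndufa4l2, a hypoxia-induced relative of Ndufa4, and Atp5s and Atp5sl. Ndufa4 was counted by its symbol with complex I, although the protein is now placed in complex IV.

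Oxidative phosphorylation takes place in the inner mitochondrial membrane. Complexes I and II pass electrons from NADH and succinate to ubiquinone, complex III hands them to cytochrome c, and complex IV reduces oxygen, while complexes I, III and IV pump protons that drive the ATP synthase, complex V. All 4 subunits of complex II and most subunits of the other complexes are nuclear genes, and the mitochondrial genome adds a few core subunits that were not analysed here. Several complex IV subunits have tissue isoforms: Cox6a2, Cox7a1 and Cox8b are found in heart and skeletal muscle, and Cox4i2 is known for its expression in lung and its response to oxygen.

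Each of 4 tables compared 3 control with 3 mutant lungs at postnatal day (P) 2 or 5: Vangl2 at P2 and P5 and Ror2 at P2 and P5, 24 lungs in all. Mutants were titled Sox9Cre; Vangl2f/f or Sox9Cre; Ror2f/f, and controls Control(Vangl1/2) or Control(Ror2), all with the genotype WT. No strain is named, and the methods mention technical and biological replicates from different mice in general, without saying which these lungs are, so p-values measure the spread between these lungs. The genotype entries of the P2 Ror2 mutants name Vangl2f/f and those of the P5 Vangl2 mutants name Ror2f/f. Groups here follow the titles, which the genotype entries of those mutants contradict. Sox9-Cre acts in the lung epithelium, so RNA of a whole lobe also holds mesenchymal, endothelial and blood cells that keep the gene, and fewer cells of a type cannot be told apart from less RNA per cell. Cre is expressed from the Sox9 locus, so loss of the floxed gene cannot be told apart from the Cre allele. Sox9 had log2 fold changes, mutant over control, of 0.17 (Vangl2 P2), -0.51 (Vangl2 P5), -0.57 (Ror2 P2) and -1.17 (Ror2 P5). Their adjusted p-values were 0.733, 0.304, 0.211 and 0.124 (limma).

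Vangl2 was lower in the P5 Vangl2 mutants, at normalized counts of 170, 148 and 166 against 369, 314 and 292 in controls. At P2 it stood at 241, 224 and 173 against 249, 302 and 281. Ror2 overlapped between groups in both Ror2 tables, at 479, 349 and 366 against 451, 581 and 520 at P2 and at 362, 440 and 521 against 526, 368 and 597 at P5, so the level of Ror2 does not check those labels. The genes named by the contradicting entries overlapped as well. Vangl2 was at 208, 251 and 236 in Ror2 P2 mutants against 270, 291 and 245. Ror2 was at 541, 351 and 273 in Vangl2 P5 mutants against 611, 478 and 487. The labelled tissue was checked by 10 alveolar type I genes, none of which was at 0 in every lung of a table. Where whole reads could be recovered, in 21 of the 24 lungs, 13823693 to 21546673 reads fell on genes. Control 1 of Ror2 P5 was at 0 for every well-expressed gene of chromosomes 6 to 9 and X and for 72.2% of those of chromosome 5. Its values were treated as missing there, which leaves 28 of the members with 2 control lungs.

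The members were among the well-expressed genes. The complex I subunit Ndufs5 and the isoform Cox8c were listed at 0 in every lung. Why Ndufs5 had no reads was not tested. The filter of a normalized count of at least 1 in 3 lungs was passed by 82 members (81 in Vangl2 P5, where Cox7b2 did not). Per kilobase of transcript, the median level over the ubiquitous subunits of complex IV was 2284 in the Ror2 P2 controls, that of complex V 2428, that of complex III 1699, that of complex II 1022 and that of complex I 942. The complex I median counts Ndufs5 at 0. The highest in those controls were Atp5b, the catalytic beta subunit of the ATP synthase, at 6408 per kilobase, Cox8a at 5957 and Cox6a1 at 5843. Encoded proteins are short, with a median length of 136 residues and a range from 52 to 727.

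Promoters are shown for members that moved differently, since these subunits are known to share binding motifs for the activators NRF1, ETS factors and YY1. Of the 84 members, 69 had an entry among the RefSeq promoters of GRCm38.p6, with 75 promoters. The window of 250 bases before to 50 after the start was searched on both strands. The letters sought were GCGCANGCG for NRF1 and CCGGAAG for the ETS factors. For the activator YY1 they were AANATGGCG, and for the general factor SP1, which binds many housekeeping promoters, GGGCGG. The letters of a TATA box, found at many tissue-specific genes, were taken as TATAAA. The window of Uqcr11 also held NRF1 letters across its start and that of Cox7a2l a further SP1 match after it, which are not capitalised. Shown are the 250 bases before the start, 5′ to 3′, with matches in capitals: NRF1 in Ndufa11, ETS in Uqcr11, SP1 in Cox7a2l and none in the muscle isoform Cox7a1.
Ndufa11 (GRCm38.p6, chr17:56717512-56717761, plus strand): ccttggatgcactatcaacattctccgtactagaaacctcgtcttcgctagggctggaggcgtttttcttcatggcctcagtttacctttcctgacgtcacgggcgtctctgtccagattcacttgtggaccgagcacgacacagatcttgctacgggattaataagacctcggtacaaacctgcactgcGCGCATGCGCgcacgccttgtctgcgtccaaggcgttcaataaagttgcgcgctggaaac
Uqcr11 (GRCm38.p6, chr10:80406822-80407071, minus strand): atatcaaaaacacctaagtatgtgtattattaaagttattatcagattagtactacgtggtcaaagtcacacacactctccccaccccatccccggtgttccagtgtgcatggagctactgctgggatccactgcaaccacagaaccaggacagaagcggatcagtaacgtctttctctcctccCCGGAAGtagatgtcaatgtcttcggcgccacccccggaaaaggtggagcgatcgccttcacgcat
Cox7a1 (GRCm38.p6, chr7:30183921-30184170, plus strand): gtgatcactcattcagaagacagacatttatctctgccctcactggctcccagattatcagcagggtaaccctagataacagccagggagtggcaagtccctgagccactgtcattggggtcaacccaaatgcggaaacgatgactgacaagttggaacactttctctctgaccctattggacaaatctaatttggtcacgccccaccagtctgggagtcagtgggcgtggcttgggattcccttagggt
Cox7a2l (GRCm38.p6, chr17:83514334-83514583, minus strand): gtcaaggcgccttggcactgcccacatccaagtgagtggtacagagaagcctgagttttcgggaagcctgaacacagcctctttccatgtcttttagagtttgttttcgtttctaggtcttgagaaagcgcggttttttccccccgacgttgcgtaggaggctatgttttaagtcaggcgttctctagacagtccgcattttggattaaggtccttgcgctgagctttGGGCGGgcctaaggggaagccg

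Ndufa11 and Uqcr11, accessory subunits of complexes I and III, were among the members lower in Ror2 P2, Cox7a2l had a positive log2 fold change in all 4 comparisons, and Cox7a1 varied widely between lungs. The NRF1 letters stood in 28% of members' promoters and in 6.25% of all 32851 promoters, the ETS letters in 21.3% against 8.86%, and the YY1 letters in 16% against 2.38%. Raised shares were not particular to the members. In promoters of mitochondrial ribosomal proteins they were 20.5% (NRF1), 32.9% (ETS) and 13.7% (YY1), and in those of cytosolic ribosomal proteins 11.9%, 37.3% and 11.9%. The SP1 letters were near the share of all promoters (38.7% against 35.7%), as were those of the TATA box (10.7% against 13.6%). By complex, NRF1 letters were found in 9 of 34 promoters of complex I, 7 of 20 of complex V and 1 of 13 of complex IV. The medians of members with and without this motif were close: in Ror2 P2 the median log2 fold change was -0.26 over the 19 tested members with an NRF1 match and -0.26 over the 49 without, and in Vangl2 P2 it was -0.23 and -0.19.

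The first question was whether the subunit genes differed between Ror2 mutant and control lungs at P2. They were lower in the mutants across all 5 complexes, by a small amount, and no single gene passed the test across the transcriptome. Fold changes are mutant over control on the scale of log2 of the normalized count plus 1, with the standard error (SE) of the fit. Of 82 members, 75 had a lower mean log2 level in the mutants, with a median log2 fold change of -0.26 against -0.01 over all genes tested. In 51 members all 3 mutant lungs were below all 3 controls, and in 1 all were above, where 12.2% of all genes tested were lower and 13.4% higher in this way. The lowest adjusted p among members was 0.203 (limma, Benjamini-Hochberg over 17541 genes), which was also the lowest of any gene, so 0 genes were called (0% of those tested). At an unadjusted p under 0.05, 41 members were lower and 1 was higher, against 9.71% and 9.55% of all genes.

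Lung by lung, the member medians in Ror2 P2 stood at -0.08, 0.06 and 0.02 in the controls and at -0.37, -0.20 and -0.21 in the mutants, as log2 deviations from the control mean. The groups did not overlap. In shares, members took 0.682%, 0.764% and 0.733% of the normalized total in controls and 0.572%, 0.634% and 0.601% in mutants.

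**Figure D1:**
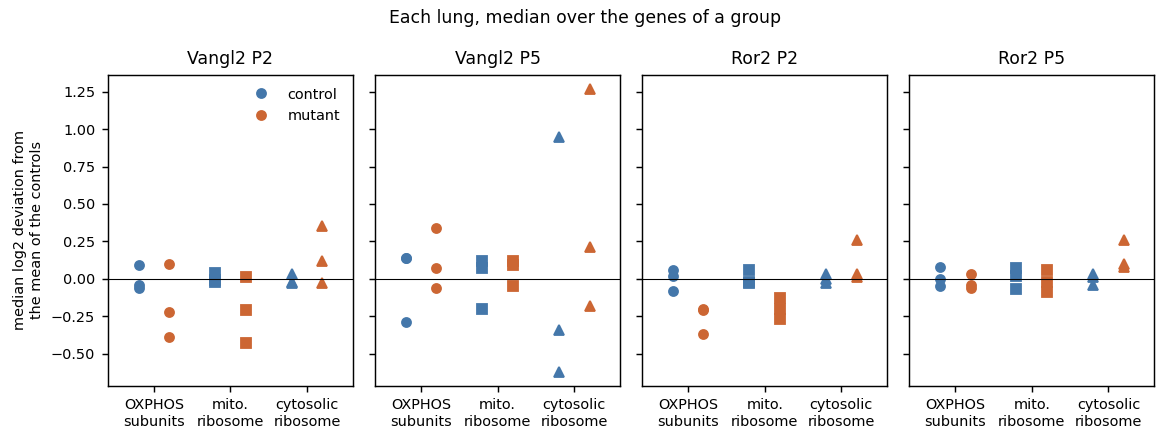
Median log2 deviation from the mean of the control lungs, 1 point a lung, over the members (circles), the mitochondrial ribosomal protein genes (squares) and the cytosolic ribosomal protein genes (triangles), with control lungs in blue and mutant lungs in orange. In Ror2 P2 the mutant lungs lie below all controls for the members, from -0.37 to -0.20, and in Vangl2 P2 mutant 3 lies at 0.10, above every control.

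In complex I, the NADH dehydrogenase, 33 of 36 tested members were lower in Ror2 P2 and the median was -0.24. Ndufa11, a membrane accessory subunit, had normalized counts of 1143, 1381 and 1146 in controls and 766, 945 and 872 in mutants (-0.51 ± 0.12, adjusted p = 0.203, limma). Every mutant lung was below every control. Ndufa4 was at 2030, 2052 and 2055 in controls and at 1509, 1661 and 1403 in mutants (-0.43 ± 0.08, adjusted p = 0.203). The 7 core subunits, which carry the flavin, iron-sulfur clusters and quinone site, had a median of -0.17, and the 28 accessory subunits one of -0.27. Ndufa6 had the highest fold change of the complex, at 979, 971 and 983 in controls and 973, 902 and 1347 in mutants, where a single mutant lung was high (0.11 ± 0.15, adjusted p = 0.691, limma).

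Complex II, succinate dehydrogenase, which also belongs to the TCA cycle, had the smallest median in Ror2 P2, at -0.19 over its 4 genes. Sdhb, the iron-sulfur subunit, was at 1391, 1561 and 1550 in controls and 1106, 1230 and 1389 in mutants (-0.28 ± 0.10, adjusted p = 0.228, limma), with the groups just apart. The membrane anchor Sdhc had a log2 fold change of -0.24, the flavoprotein Sdha one of -0.14 and the second anchor Sdhd one of -0.13. All 4 were lower, and Sdhd alone overlapped between groups.

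In complex III all 8 members were lower in Ror2 P2, with a median of -0.29. Uqcrq, a small accessory subunit, was at 1126, 1561 and 1404 in controls and 868, 1017 and 988 in mutants (-0.50 ± 0.13, adjusted p = 0.203, limma). Uqcr11, named after its values were seen, was at 791, 822 and 932 against 611, 652 and 613 (-0.44 ± 0.09, same adjusted p). Both were lower in every mutant lung, whereas Uqcrh, the hinge protein, overlapped at 1644, 1768 and 1913 against 1573, 1802 and 1875 (-0.02).

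Complex IV, cytochrome c oxidase, had the largest median, -0.30 over 17 tested members, and its 10 ubiquitous subunits were all lower with a median of -0.31. Cox5a, a matrix-side subunit, and Cox7b were singled out after their values were seen. Cox5a was at 1021, 1238 and 1129 in controls and 708, 899 and 734 in mutants (-0.54 ± 0.12, adjusted p = 0.203, limma), and Cox7b at 1860, 2071 and 1972 against 1296, 1580 and 1441 (-0.45 ± 0.09, same adjusted p). The lowest fold change of the complex was that of the weakly expressed muscle isoform Cox7a1, at 26.8, 77.2 and 74.5 against 34.9, 37 and 30.5, with overlap (-0.65 ± 0.43, adjusted p = 0.419). Cox4i1, the main isoform of the regulatory subunit 4, overlapped, at 3141, 3471 and 3423 against 2864, 2892 and 3608 (-0.11).

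The member that stood out in the other direction was Cox7a2l, which helps to join complexes III and IV into supercomplexes. Its normalized counts were 2692, 2127 and 2293 in Ror2 P2 controls and 3154, 2728 and 3828 in mutants (0.44 ± 0.14, adjusted p = 0.208, limma). It was the single member with every mutant lung above every control there.

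In complex V, 16 of 17 members were lower in Ror2 P2 and the groups did not overlap in 14, with a median of -0.25. The c-ring, through which protons turn the enzyme, is encoded by 3 genes for the same mature protein. Atp5g1 was at 849, 816 and 879 in controls and 609, 706 and 504 in mutants (-0.50 ± 0.13, adjusted p = 0.203, limma), Atp5g3 at 2200, 2532 and 2650 against 1672, 1942 and 1761 (-0.46 ± 0.10), and Atp5g2 at 1620, 1588 and 1482 against 1278, 1370 and 1310 (-0.24 ± 0.07). All 3 were lower in every mutant lung. Atp5sl, which despite its symbol is an assembly protein of complex I, overlapped at 0.09.

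The count of calls in Ror2 P2 depended on the test. On recovered whole reads edgeR called 0 members and 0% of genes, while DESeq2 called 18 members, all lower, and 5.76% of genes. Without mutant 2, limma called 4.84% of genes, and 6 members were called lower: Atp5g1, Atp5g3, Cox5a, Cox7b, Ndufa4 and Ndufb8.

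**Figure D2:**
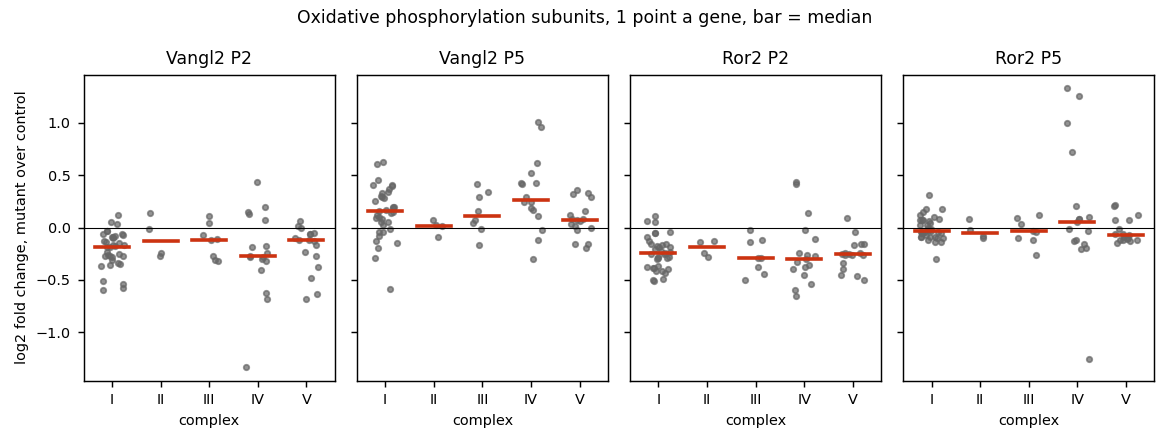
Log2 fold change, mutant over control, of each tested member (grey points) by complex in the 4 comparisons, with the median of each complex as a red bar. In Ror2 P2 the medians lie between -0.30 and -0.19, in Vangl2 P5 between 0.01 and 0.27, and complex IV has the widest spread in Ror2 P5, from -1.26 to 1.33.

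Whether the Vangl2 mutants differed at P2 was the next comparison. Members were lower in 69 of 82, with a median of -0.18 against 0.00 over all genes, but the mutant lungs did not move together. Their medians were -0.39, -0.22 and 0.10, against 0.09, -0.04 and -0.06 in controls, so mutant 3 was above all controls. No member was called among 3.59% of genes called (limma). All mutant lungs lay below all controls in 5 members and above in 1, against 14.9% and 14.6% of all genes, and 1 member was lower and 1 higher at an unadjusted p under 0.05 (10.8% and 11.7%). Medians by complex were -0.18 for I, -0.12 for II, -0.11 for III, -0.27 for IV and -0.12 for V. Without mutant 3, 16 members were called lower (13.2% of genes called) and the median was -0.32, while edgeR called 0 members (3.67% of genes) and DESeq2 1 (13% of genes).

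Atp5g1 had the largest difference among ubiquitous subunits in Vangl2 P2, at 1330, 1366 and 1177 in controls and 551, 822 and 1149 in mutants (-0.68 ± 0.24, adjusted p = 0.154, limma). Mutant 3 lay just under the lowest control. Ndufb2 showed the same order with overlap, at 720, 717 and 631 against 258, 521 and 696 (-0.60 ± 0.32, adjusted p = 0.312), and so did Uqcr11, at 1538, 1333 and 1284 against 743, 1200 and 1519 (-0.32 ± 0.24). The weakly expressed isoform Cox7b2 had the lowest fold change of all members, at 5.27, 4.74 and 5.75 against 2.07, 3.93 and 0 (-1.33 ± 0.64, adjusted p = 0.264, limma). The highest fold changes of complexes I, III and V were 0.12 (Ndufa6), 0.11 (Uqcrfs1, the Rieske iron-sulfur protein) and 0.06 (Atp5sl), all with overlap. In complex II, Sdhc stood at -0.27, Sdhb at -0.24, Sdha at -0.01 and Sdhd at 0.14, with adjusted p between 0.3 and 0.966 (limma).

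Cox7a2l was again the exception. In Vangl2 P2 it was at 3244, 2611 and 3172 in controls and 3759, 4282 and 4178 in mutants, 0.44 ± 0.11 higher (adjusted p = 0.0747, limma). This was the lowest adjusted p of any member in that table, and DESeq2 on recovered reads gave the same gene an adjusted p of 0.0155.

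**Figure D3:**
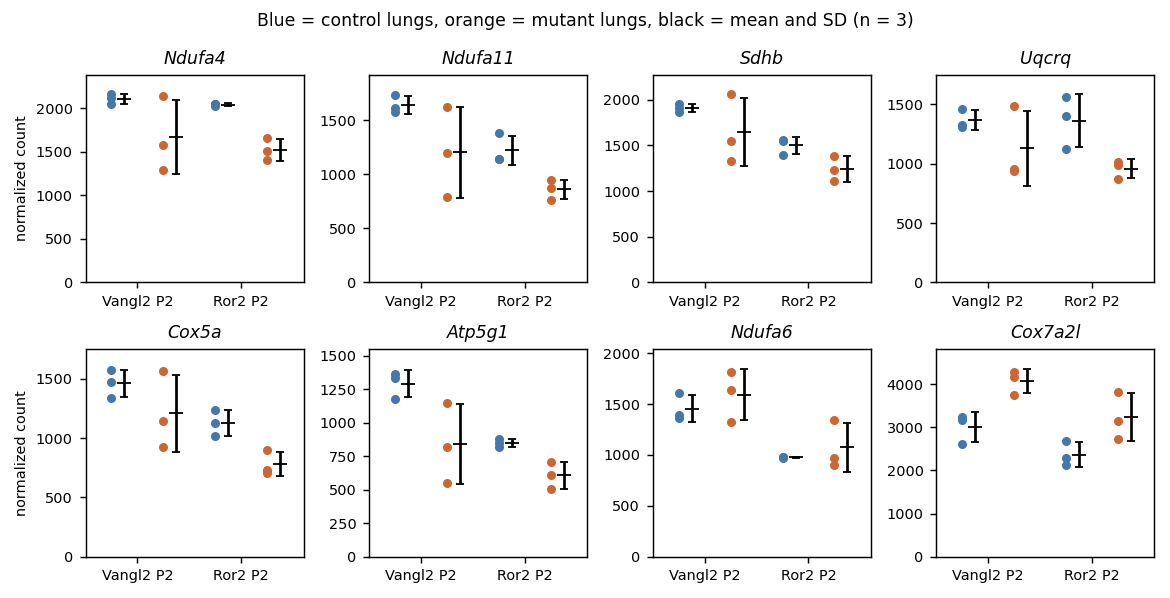
Normalized counts of 8 members in the P2 tables, 1 point a lung, with controls in blue, mutants in orange and the mean and SD in black (n = 3). Ndufa4, Ndufa11, Uqcrq, Cox5a and Atp5g1 have all 3 Ror2 mutant lungs below the controls, the Vangl2 mutant lungs are spread widely, Ndufa6 overlaps in both tables and Cox7a2l is higher in all mutant lungs of both.

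At P5 the Vangl2 comparison went the other way, as did other genes for short proteins. Of 81 tested members 62 were higher in mutants, with a median of 0.14 against 0.00 over all genes, and none was called (0.563% of genes, limma). The groups did not overlap in 5 members, all higher, and 0 lower, against 13.2% and 12.5% of genes, and 4 members were higher and 1 lower at an unadjusted p under 0.05 (10.4% and 8.35%). Lung medians overlapped, at 0.14, -0.29 and 0.14 in controls and 0.34, -0.06 and 0.07 in mutants. Without control 2, the lowest lung, the median was -0.02, and over all left-out lungs it ran from -0.02 to 0.22. Complex IV had a median of 0.27, complex I 0.16, complex III 0.12, complex V 0.07 and complex II 0.01.

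Same-numbered lungs of Vangl2 P5 deviated together, so a fit with the replicate number as a block was also made. It called 5 members, all higher, against 8.95% of genes: Cox6b2 (0.96, adjusted p = 0.0192, limma), Cox7a2l (0.52, 0.0276), Ndufa6 (0.63, 0.0286), Ndufa2 (0.61, 0.0359) and Uqcrh (0.42, 0.0474). Ndufa6, an accessory subunit of complex I, was at 811, 783 and 1138 in controls and 1433, 1251 and 1482 in mutants. Uqcrh was at 1743, 2074 and 2177 against 2235, 3022 and 2771. Cox6b2, best known from testis, was at 226, 145 and 175 against 458, 306 and 306, and for these 3 genes every mutant lung was above every control. Cox7a2l was at 2178, 1130 and 1005 against 3252, 1556 and 1432, and Ndufa2 at 630, 336 and 535 against 1039, 570 and 682. Both overlapped and were highest in replicate 1 of each group. Without the block, adjusted p among the genes named here ran from 0.113 (Cox6b2) to 0.506 (Cox7a2l) in limma. A joint fit of the 12 P5 lungs called 1 member, Ndufa6, and 5.95% of genes.

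The lowest fold change of complex I in Vangl2 P5 was that of Ndufa4l2, at 1390, 1167 and 1234 in controls and 1184, 876 and 561 in mutants, which overlapped (-0.59 ± 0.25, unadjusted p = 0.0461 and adjusted p = 0.256, limma). In complexes III, IV and V the lowest were -0.17 (Uqcrc1, a core protein of complex III), -0.30 (Cox4i2) and -0.20 (Atp5b). The highest were 1.01 (Cox8b) in complex IV and 0.36 (Atp5j2) in complex V, and these 5 genes overlapped between groups. In complex II the 4 genes lay between -0.09 (Sdha) and 0.07 (Sdhb).

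Libraries numbered 1 in Vangl2 P5 stood apart in several short transcripts. Cytosolic ribosomal protein genes took 2.53% of the normalized total in control 1 and 3.25% in mutant 1, against 0.975% to 1.91% in the other lungs. Cox7c was at 1493, 215 and 281 in controls and 2257, 287 and 336 in mutants, Atp5g2 at 1550, 302 and 353 against 1102, 298 and 361, and Atp5l at 1423, 246 and 340 against 1532, 396 and 390. These 3 members followed the library number rather than the genotype. What part this has in the members' fold changes was not tested, and the member median was 0.22 without control 1 and 0.03 without mutant 1.

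In Ror2 P5 the members did not differ as a body. Of 82 tested, 49 were lower and 33 higher, with a median of -0.03 against 0.00 over all genes and none called (0.122% of genes, limma). Lung medians were 0.08 (over 54 members), 0.00 and -0.05 in controls and -0.04, -0.06 and 0.03 in mutants. Among the 54 members with a value in all lungs, the groups did not overlap for 6 lower and 3 higher ones, against 12.3% and 13.7% of genes. Over all 82 tested, 3 were lower and 4 higher at an unadjusted p under 0.05 (8.35% and 10%). The lowest adjusted p, 0.177, belonged to Uqcr11, at 782, 831 and 751 in controls and 683, 625 and 672 in mutants (-0.26 ± 0.08). Cox7a2l was at 2378, 2521 and 2351 against 2512, 2839 and 3083 (0.21 ± 0.09, adjusted p = 0.247), and Ndufa6 at 1070, 820 and 934 against 1261, 1065 and 1169 (0.31 ± 0.11, adjusted p = 0.214). Both overlapped. Ndufa4l2 had the lowest fold change of complex I here too, at 1421, 1568 and 1505 against 1052, 1246 and 1383 without overlap (-0.30 ± 0.10, unadjusted p = 0.0233 and adjusted p = 0.211, limma). Cox7b2, at 0 to 3.97, had that of complex IV (-1.26), and Atp5j2 that of complex V (-0.15). The highest of complexes III and V were 0.12 (Uqcrb) and 0.22 (Atp5s).

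The change from P2 to P5 in the mutant effect was tested directly, over 12 lungs. For Ror2 the effect was higher at P5 in 77 of 82 members, by a median of 0.22 on the log2 scale against 0.02 over all genes, with 24 members higher and 1 lower at an unadjusted p under 0.05 (5.09% and 4.41% of genes). None passed adjustment (0% of genes, lowest adjusted p = 0.454, limma). Cox7b had the lowest unadjusted p, 0.00148, with a difference of 0.53 ± 0.12 in limma, followed by Ndufa4 with 0.47 ± 0.11. For Vangl2 the median difference was 0.35, with 70 of 81 members higher, 6 higher and 0 lower at an unadjusted p under 0.05 (4.38% and 4.07%), and a lowest adjusted p of 0.577 (0% of genes called). Between the mutants, the effect in Ror2 minus that in Vangl2 had a median of -0.06 at P2 and -0.15 at P5, with no member called (0% and 0.0118% of genes, lowest adjusted p = 0.946 and 0.962, limma). At an unadjusted p under 0.05, 1 member was lower and 0 higher at P2, against 2.58% and 2.02% of genes, and 1 lower and 0 higher at P5, against 2.59% and 2.13%.

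The muscle isoforms of complex IV varied widely between lungs at P5, unlike the isoform Cox4i2, which was at 1505, 1462 and 1501 in Vangl2 P5 controls. In Ror2 P5 the muscle isoform Cox7a1 was at 16.1 and 20.8 in controls 2 and 3 and at 79.3, 40.7 and 28.6 in mutants (1.26 ± 0.46, adjusted p = 0.227, limma). Cox8b was at 10 and 29.8 against 100, 48 and 19.1, and Cox6a2 at 40.2 and 78.4 against 218, 103 and 63.9. Mutant 1 was highest for all 3. The 15 cardiac muscle genes with a value in all lungs summed to 17850, 7332 and 2404 in the mutants and to 6156, 1422 and 6044 in the controls, so the isoforms were ordered as the cardiac genes among the mutants. In Vangl2 P5 it was control 3 that was high, with Cox8b at 286 and Cox7a1 at 183 against 4.7 to 92 and 16.5 to 97.1 in the other lungs, and its 18 cardiac genes summed to 7830, the highest of that table. Cox6a2 did not follow there, at 95.7 in control 3 against 162 in mutant 1 and 137 in mutant 3. No cardiac marker of the list was at 0 in every lung, and the part of heart tissue in these isoform values was not tested.

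**Figure D4:**
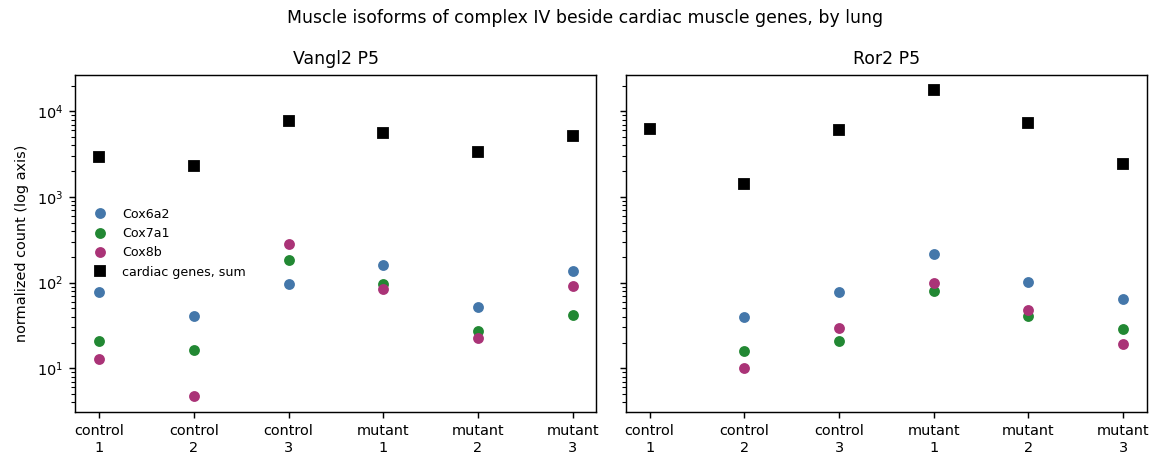
Normalized counts (log axis) of the muscle isoforms Cox6a2, Cox7a1 and Cox8b and the sum of the cardiac muscle genes (black squares) in each lung at P5. Mutant 1 is highest for all in Ror2 P5, control 3 is highest for Cox7a1, Cox8b and the cardiac sum in Vangl2 P5, and the isoforms of Ror2 P5 control 1 are missing.

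Cox4i2 was read as its share of Cox4i1 plus Cox4i2 per kilobase, which does not depend on the scaling of a library. In Vangl2 P2 it was 25.1% ± 0.911 (SD, n = 3) in controls and 21.2% ± 1.68 in mutants, without overlap. The exact permutation p was 0.1, the lowest value possible with 3 lungs on either side of a two-sided test. In Vangl2 P5 it was 33% ± 2.92 against 25% ± 7.13 (exact permutation p = 0.3), in Ror2 P5 39.7% ± 2.78 (n = 2) against 33.3% ± 0.537 (exact permutation p = 0.2, the smallest possible), and in Ror2 P2 27.8% ± 3.64 against 29% ± 3.65 (exact permutation p = 0.7). Ndufa4l2 took 27.4% ± 2.61 of Ndufa4 plus Ndufa4l2 in Ror2 P2 controls and 34.5% ± 4 in mutants (exact permutation p = 0.1), and 29.1% ± 2.99 against 33.4% ± 6.08 in Vangl2 P2 (exact permutation p = 0.3). At P5 the mutants had the lower share, 28.6% ± 3.93 against 34.1% ± 0.718 (n = 2) in Ror2 (exact permutation p = 0.2, the smallest possible) and 22.5% ± 8.47 against 30.4% ± 3.89 in Vangl2 (exact permutation p = 0.3). Per kilobase, Atp5g1 took 4.15% ± 0.207 of the 3 c-ring genes in Vangl2 P2 controls and 3.11% ± 0.823 in mutants (exact permutation p = 0.1). The size of this share rests on annotated transcript lengths, 4715 bases for Atp5g1 against 731 for Atp5g2 and 723 for Atp5g3. The length used for Atp5g1 exceeds the span of its gene in RefSeq, so the share does not give its part of the transcripts. By normalized count, the Vangl2 P2 control means were 1291, 1364 and 3224 in that order. With 36 shares compared, none can pass an adjusted p of 0.05 at these group sizes.

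Other mitochondrial lists were set beside the members. In Ror2 P2 the mitochondrial ribosomal proteins had a median of -0.19 with 70 of 76 lower, the assembly factors of the complexes -0.14 with 35 of 45 lower, the import machinery -0.19 with 20 of 24 lower, and the TCA cycle -0.15 with 17 of 18 lower. None of their genes was called. The regulators, among them Ppargc1a, Nrf1, Gabpa and Tfam, had a median of 0.03 and no called gene, with 7 of 18 lower. Ppargc1a, a coactivator of mitochondrial genes, was the highest of the 18 at P2. It stood at 0.41 ± 0.18 in Ror2 P2 and 0.82 ± 0.18 in Vangl2 P2 (adjusted p = 0.26 and 0.051, limma). The lowest regulators stood at -0.58 and -0.50, and 12 of 18 were lower in Vangl2 P2. Glycolysis genes stood at 0.00 and the cytosolic ribosomal proteins at 0.10, with 61 of 76 higher. Members thus had the lowest median of these lists in that table, whereas in Vangl2 P2 the mitochondrial ribosomal proteins (-0.24) and the import machinery (-0.21) were below the members.

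**Figure D5:**
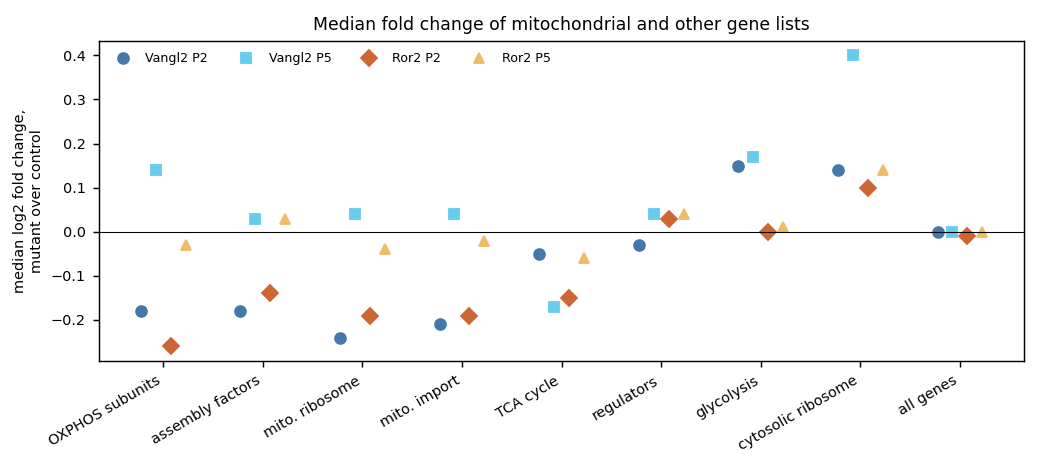
Median log2 fold change, mutant over control, of the members, of other gene lists and of all genes tested, 1 symbol a comparison. At P2 the members, assembly factors, mitochondrial ribosome, import and TCA cycle lie below 0 in both mutants, the regulators lie at -0.03 and 0.03, the cytosolic ribosomal proteins lie above 0 in all 4 comparisons (0.10 to 0.40), and the members lie at 0.14 in Vangl2 P5 and -0.03 in Ror2 P5.

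Protein length and level moved with the difference in Ror2 P2. For proteins under 100 residues the median was -0.39 over 22 members and -0.11 over 287 other genes, and for those of 400 or more it was -0.16 over 9 members and 0.02 over 9376 other genes. Median lengths by complex were 87.5 residues (IV), 100 (III), 144 (I), 161 (V) and 226 (II). The part of length in the order of the complexes was not tested. Among genes with a protein under 200 residues and a normalized count of 500 or more, the 47 members stood at -0.26 and 785 other genes at -0.07. In Vangl2 P5 other short proteins were higher too. Within the same limits of length and level, 51 members stood at 0.19 there and 749 other genes at 0.08. By length alone, the medians were 0.32 (members) and 0.25 (other genes) under 100 residues and 0.15 and 0.22 from 100 to under 150. They were 0.16 and 0.11 from 150 to under 200, and -0.13 and -0.07 at 400 or more. In Vangl2 P2 they were -0.31 and -0.09 under 100 residues and -0.07 and 0.02 at 400 or more. In Ror2 P2 the 3 members on the X chromosome had a median of -0.45 against -0.25 for the rest, where control 2 and mutant 2 were the lungs with high Xist (22660 and 24770). The groups were not balanced in this way in the other comparisons. Xist was high in control 1 and mutants 2 and 3 of Vangl2 P2 and in every lung but mutant 1 of Vangl2 P5. In Ror2 P5 it was high in control 2 alone, with the X chromosome of control 1 missing. Cell type lists moved as well in Ror2 P2: all 12 proliferation genes were lower (median -1.78), their sum running from 14451 to 28787 in controls and 3104 to 15437 in mutants with no gene at 0, and all 5 tested erythroid genes were lower (median -1.11), 51783 to 74609 against 18179 to 58978, while the 10 alveolar type I genes were all higher (median 0.52). Of the other lists there, 10 of 10 endothelial genes were higher (0.28), 8 of 9 macrophage genes (-0.45), 8 of 10 matrix fibroblast genes (-0.49) and 16 of 18 cardiac muscle genes (-0.43) were lower, and no gene of these lists was at 0 in every lung. In Vangl2 P2 the 12 proliferation genes were called lower (median -1.75), and 7 of 9 neutrophil genes were called higher (median 1.43). In Vangl2 P5, where members were higher, so were all 9 neutrophil genes (1.91, 4 called, sums of 3746 to 5199 in controls and 11050 to 25481 in mutants), all 9 macrophage genes (0.62), all 6 club cell genes (1.16, sums of 67857 to 128817 against 218613 to 277871) and all 8 ciliated cell genes (1.13). In the same lungs 9 of 10 endothelial genes (-0.49, sums of 85024 to 94009 against 50819 to 80552) and all 12 proliferation genes (-0.59) were lower, with no gene of these 6 lists at 0 in every lung. Lower too were 8 of 9 myofibroblast and smooth muscle genes (-0.56), 6 of 10 matrix fibroblast genes (-0.53) and all 5 tested erythroid genes (-0.43). Higher were 10 of 11 alveolar type II genes (0.50), 9 of 10 alveolar type I genes (0.17) and 15 of 18 cardiac muscle genes (0.27). Lung by lung, the Ror2 P2 mutants had proliferation medians of -1.73, -0.54 and -3.12 beside member medians of -0.37, -0.20 and -0.21. In the Vangl2 P2 mutants these were -2.39, -1.71 and -1.23 beside -0.39, -0.22 and 0.10, in the same order. The part of cell makeup in the members' values was not tested.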

How the data were processed

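Total RNA of whole left lung lobes was sequenced by the study, and 4 tables of 23420 genes were deposited with 3 control and 3 mutant lungs each. The deposited values are a signal, read counts divided by a size factor per lung, made by the authors with DESeq2 on mm10 per the submitters' processing notes, whose versions are not given in the sources used here. The tables also hold the authors' own fold changes and p-values, which were not used. Replicates were not pooled.

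Members and gene lists were chosen with earlier results of these data known. Genes at 1 or more in at least 3 lungs were tested with limma 3.58.1 (lmFit, eBayes with trend, R 4.3.3) on log2(value + 1), p-values being adjusted by Benjamini-Hochberg across every gene tested, at a threshold of 0.05. Differences between comparisons were fitted over 12 lungs. Whole reads (tolerance 0.02) were recovered for 21 lungs, and edgeR 4.0.16 and DESeq2 1.42.0 were run on these for the P2 tables, in which all 6 lungs were recovered. The tests were checked on simulated data. Depth could not be read for the other 3 lungs.

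The rule for naming genes took those with the largest fall and rise of complexes I, III, IV and V in each comparison, all of complex II, and the isoforms with their partners. Cox5a, Cox7b, Cox7c, Atp5l, Uqcr11 in Ror2 P2 and members called only under an alternative were named after their values were seen. Lengths came from GENCODE vM21 and promoters from RefSeq GRCm38.p6. Same-numbered lungs of Vangl2 P5 deviated together (r = 0.384, 0.34 and 0.241 across genes, each over the threshold of 0.1), so these were read as paired from the data and the blocked values are given. Alternatives were other pseudocounts (0.5 and 5), filters, scalings, a replicate block, a joint fit of 12 lungs and each lung left out.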

Additional observations from a re-analysis of the deposited data

How the results depend on the processing

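Of 186 counts and medians recomputed under alternatives, 180 kept their side of the threshold or moved by less than 1 SD of the lung medians. That SD was 0.25 in both Vangl2 comparisons, 0.10 in Ror2 P2 and 0.07 in Ror2 P5. Outside Ror2 P2 it exceeded the size of the member median, so a median could change sign there and still count as kept. Among these 180, the member median changed sign in Vangl2 P5 without control 2 (-0.02) and in Ror2 P5 with the values as deposited (0.03). The other 6 were counts of members called: DESeq2 gave 1 in Vangl2 P2 and 18 in Ror2 P2, and the joint fit of 12 lungs gave 1 in Vangl2 P5, Ndufa6 (5.95% of genes called). Leaving out lungs in turn gave 0 to 16 in Vangl2 P2 (16 without mutant 3, with 13.2% of genes called) and 0 to 6 in Ror2 P2 (6 without mutant 2, with 4.84%); the cause was not tested. With a replicate block, 5 were called in Vangl2 P5 and 0 in the other 3 comparisons and all 4 differences, with medians of -0.18 (Vangl2 P2), 0.14 (Vangl2 P5), -0.26 (Ror2 P2) and -0.04 (Ror2 P5). Outside Vangl2 P5 same-numbered lungs were not read as paired. Their correlations were -0.00999, 0.0399 and 0.0895 in Vangl2 P2 and 0.0461, -0.0481 and -0.0868 in Ror2 P5. In Ror2 P2 they were 0.0346, 0.206 and 0.119, so replicates 2 and 3 lay over the threshold of 0.1 and replicate 1 did not.

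Single members, none of them called, changed sign, among them Cox8b (1.01 ± 1.31) in Vangl2 P5. Under quantile normalization, Sdha was at 0.04, Cox7a1 at -0.14 and Atp5g1 at -0.04 in Vangl2 P5, and Sdha at 0.03 and Cox6b1 at 0.06 in Ror2 P5, where the block put Ndufa4 at -0.01. With the missing chromosomes of Ror2 P5 control 1 kept at 0 as deposited, Atp5j2 was at 3.36, Cox6a1 at 3.75 and Cox6b1 at 3.79, which that lung's zeros produce. With lungs left out in turn, Vangl2 P2 gave Atp5sl from -0.03 to 0.20, Cox6a2 from -0.15 to 0.65, Ndufa4l2 from -0.15 to 0.01 and Sdha from -0.04 to 0.03. In the same way, Vangl2 P5 gave Atp5g1 from -0.52 to 0.51, Atp5g2 from -0.74 to 0.59, Atp5g3 from -0.03 to 0.25, Cox6a1 from -0.08 to 0.24, Cox7a1 from -0.38 to 1.32, Cox8a from -0.00 to 0.30, Cox8b from -0.14 to 2.69, Ndufa4 from -0.06 to 0.17, Sdhb from -0.14 to 0.28, Sdhc from -0.05 to 0.07, Sdhd from -0.13 to 0.19 and Uqcrc1 from -0.39 to 0.01. In the same way, Ror2 P2 gave Atp5sl from -0.00 to 0.18, Cox4i2 from -0.15 to 0.05, Cox6b2 from -0.37 to 0.48, Ndufa4l2 from -0.06 to 0.10, Ndufa6 from -0.06 to 0.23 and Uqcrh from -0.08 to 0.05. In the same way, Ror2 P5 gave Cox6b1 from -0.04 to 0.02, Cox7a2 from -0.01 to 0.08, Ndufa4 from -0.01 to 0.09 and Sdha from -0.08 to 0.01.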
